A study of Mus musculus with 2 samples.

Results

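Cytosolic ribosomal protein genes were picked by symbol from the protein-coding part of GENCODE M21: Rpl or Rps followed by a digit, together with Rplp0, Rplp1, Rplp2 and Rpsa. Ribosomal protein kinases (Rps6k symbols) and Rps19bp1 were left out. The rule took 91 genes of 21827, of which 57 belong to the large (60S) subunit and 34 to the small (40S) subunit by symbol, on 20 chromosomes. Of the 91, 77 are ordinary genes, 8 are named as copies of another member (such as Rpl22l1 beside Rpl22) and 6 carry a pseudogene-style "-ps" symbol although they are annotated as protein-coding. The data are DNase-seq, in which the nuclease DNase I cuts accessible DNA in nuclei, so that dense cutting marks open chromatin. There were 2 libraries of one group: naive resting CD8+ alpha-beta T cells from male, virgin, adult B6CASTF1/J mice aged 2 months, an F1 hybrid of a laboratory strain and a wild-derived strain, with no treatment or genetic change labelled. They are called replicate 2 and replicate 3 after their labels. They share a donor label but not a biosample label, and the sources used here do not tell whether 1 animal or 2 gave the cells. With 1 group, no conditions are compared, and the spread is that between these libraries.

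Cytosolic ribosomes translate nuclear-encoded mRNAs, and each ribosome holds a fixed set of proteins, most of them in a single copy. Ribosomal protein genes are housekeeping genes expressed in nearly all cells. Their mammalian promoters usually lie in CpG islands, mostly without a TATA box close before the start, and transcription starts at a C inside a run of pyrimidines. That run becomes the 5′ terminal oligopyrimidine (TOP) motif of the mRNA, through which mTOR signalling controls translation. Naive T cells are small and quiescent, and they enlarge and make many more ribosomes once activated.

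Per library, the authors' deposited files held a shorter and a longer peak list, here called stricter and permissive, with 1 signal value per peak, of unstated scaling. They also held footprints, runs of bases that DNase I cut less than their open surroundings, and false discovery rates along the genome. Replicate 2 had 38223 stricter peaks and 146244 footprints, and replicate 3 had 17061 and 29967. A gene missing from the list of replicate 3 alone is therefore not shown to be closed there. Stricter promoter peaks were found at 11 of 14 T cell and CD8 marker genes in replicate 2 and at 3 of 14 (Cd8b1, Zap70 and Bcl11b) in replicate 3. Of 5 B cell, 5 myeloid, 3 natural killer, 3 erythroid and 3 non-blood markers, 4 had such a peak in replicate 2 (Cd68, Itgam, Klrd1 and Epor) and 0 in replicate 3. The part of other cells in the results was not tested.

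The promoter sequences show where protected stretches lay in 5 of the 10 members of highest signal, then 1 of the 6 of lowest signal, the 3 with a peak in replicate 2 alone and 1 copy with no peak. Each runs 5′ to 3′ from 120 bases before the primary annotated start site to 30 bases from it on, 150 bases in all, read from the GRCm38 (mm10) reference. Capitals mark bases inside a footprint of replicate 2. The positions are Rps3a1 at chr3:86142673-86142822 on the minus strand, Rplp0 at chr5:115559347-115559496 on the plus strand, Rps28 at chr17:33824533-33824682 on the minus strand, Rpl37 at chr15:5116525-5116674 on the plus strand, Rps12 at chr10:23787246-23787395 on the minus strand, Rps4x at chrX:102189365-102189514 on the minus strand, Rpl6 at chr5:121204361-121204510 on the plus strand, Rpl23a at chr11:78183555-78183704 on the minus strand, Rpl41 at chr10:128549276-128549425 on the minus strand, Rps27rt at chr9:114982710-114982859 on the minus strand.
Rps3a1: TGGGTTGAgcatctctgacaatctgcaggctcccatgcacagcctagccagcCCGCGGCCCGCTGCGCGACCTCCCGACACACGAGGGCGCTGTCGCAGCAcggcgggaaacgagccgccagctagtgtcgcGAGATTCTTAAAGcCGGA
Rplp0: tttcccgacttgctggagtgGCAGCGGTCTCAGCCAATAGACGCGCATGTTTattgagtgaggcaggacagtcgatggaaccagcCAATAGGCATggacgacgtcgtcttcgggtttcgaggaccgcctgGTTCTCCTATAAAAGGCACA
Rps28: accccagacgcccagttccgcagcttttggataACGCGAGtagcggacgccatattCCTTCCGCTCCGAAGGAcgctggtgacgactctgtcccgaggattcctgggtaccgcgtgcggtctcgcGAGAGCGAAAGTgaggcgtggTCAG
Rpl37: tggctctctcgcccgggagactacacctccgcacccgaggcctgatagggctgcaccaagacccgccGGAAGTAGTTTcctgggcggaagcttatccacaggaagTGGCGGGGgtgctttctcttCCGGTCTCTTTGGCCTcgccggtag
Rps12: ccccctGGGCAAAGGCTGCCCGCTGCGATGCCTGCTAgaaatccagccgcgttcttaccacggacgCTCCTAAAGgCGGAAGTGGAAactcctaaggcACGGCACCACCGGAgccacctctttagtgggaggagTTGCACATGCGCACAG
Rps4x: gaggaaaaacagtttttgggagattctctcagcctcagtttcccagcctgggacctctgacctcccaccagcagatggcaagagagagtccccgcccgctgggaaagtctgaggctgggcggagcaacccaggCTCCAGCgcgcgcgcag
Rpl6: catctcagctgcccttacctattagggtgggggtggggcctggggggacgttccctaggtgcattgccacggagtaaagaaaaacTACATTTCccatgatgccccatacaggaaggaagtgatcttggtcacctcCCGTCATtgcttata
Rpl23a: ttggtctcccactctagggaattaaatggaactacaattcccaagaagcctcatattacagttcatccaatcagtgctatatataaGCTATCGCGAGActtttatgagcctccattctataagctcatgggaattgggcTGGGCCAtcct
Rpl41: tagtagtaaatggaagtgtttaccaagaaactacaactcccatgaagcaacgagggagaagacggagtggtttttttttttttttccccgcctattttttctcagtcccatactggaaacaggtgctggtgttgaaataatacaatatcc
Rps27rt: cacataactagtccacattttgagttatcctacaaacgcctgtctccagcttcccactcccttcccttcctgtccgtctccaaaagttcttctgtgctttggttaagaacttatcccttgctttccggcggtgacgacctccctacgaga

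In Rps3a1, the strongest member, 4 footprints touched these 150 bases and covered 74 of them. In Rps12, 5 footprints covered 81 bases, and in Rplp0, 3 footprints covered 62. In the weakly open Rps4x, 1 footprint covered 7 bases. The windows of Rpl41 and Rps27rt held 0. The Rpl41 peak in replicate 2 was strong but centred 124.5 bp after the start site, so it lay mostly outside these 150 bases. The whole Rpl41 promoter held 6 footprints in replicate 2.

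A promoter was taken as 1000 bp either side of any annotated protein-coding start site, and a gene was called open when a stricter peak overlapped it. Of the 91 members, 78 were open in both libraries (85.7%, 95% Wilson interval 77.1 to 91.5%), against 40.9% of all protein-coding genes. In replicate 2, 81 members were open, against a background of 50.5%. In replicate 3, 78 members were open, against a background of 40.9%. With the permissive lists, 80 members were open in both libraries, against 45.5% of all genes. These intervals cover counting error only. Among the ordinary genes 74 of 77 were open in both libraries, among the named copies 4 of 8, and among the genes with "-ps" symbols 0 of 6. By subunit, 46 of 57 large-subunit members and 32 of 34 small-subunit members were open in both. Most of the others in either subunit were copies or "-ps" genes, which make up a larger part of the large-subunit list. These counts therefore do not compare like genes between the subunits.

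The members without an open promoter were mostly copies. The 4 named copies open in neither library were Rpl3l, known for expression in heart and skeletal muscle, Rpl10l and Rpl39l, known for expression in male germ cells, and Rps27rt. The 6 others were Rpl10-ps3, Rpl36-ps4, Rpl36a-ps1, Rpl9-ps1, Rpl9-ps6 and Rps12-ps3. None of these 10 had a permissive peak, a footprint or a stretch listed with a false discovery rate of 0.05 or less in its promoter in either library. Reads that match several places can be lost in alignment, so the 36-base words of the reference were counted as unique or repeated. In all 10, every such word in the 250 bases before the start site was unique. In the 250 bases after it, the repeated share was 100% for Rps27rt, 14.7% for Rpl10l and 0 for Rpl3l and Rpl39l. Among the genes with "-ps" symbols it was 100% for Rpl10-ps3 and Rps12-ps3, 98.8% for Rpl9-ps6, 55.4% for Rpl36a-ps1, 34.3% for Rpl9-ps1 and 0 for Rpl36-ps4. The part of repeated sequence in the missing peaks was not tested. The 4 copies open in both libraries were Rpl22l1, Rpl7l1, Rpl36al and Rps27l. Rpl22l1, the paralogue of Rpl22, reached 10.26 in replicate 2 and 11.16 in replicate 3, above the 6.22 and 4.74 of Rpl22 itself. Rpl22 is known to be needed for alpha-beta T cell development in mice.

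Open in replicate 2 alone were 3 ordinary genes of the large subunit, and 0 members were open in replicate 3 alone. Rpl23a encodes a protein at the exit of the nascent chain tunnel. Its signal was 2.01 in replicate 2, and in replicate 3 it had only a permissive peak with a signal of 2.12. Of 621 other genes with a replicate 2 signal within 10% of that of Rpl23a, 76.5% had a stricter promoter peak in replicate 3. Rpl6 encodes a core protein of the 60S subunit. It had a signal of 2.35 and 4 footprints in replicate 2, and in replicate 3 no peak of either list and 0 footprints. Of 735 other genes with a replicate 2 signal within 10% of that of Rpl6, 84.5% had a stricter peak in replicate 3. Rpl41 encodes the shortest ribosomal protein. It had a signal of 6.31 in replicate 2 and a permissive peak of 3.30 in replicate 3, where the smallest false discovery rate in its promoter was 0.000971. Of 1141 other genes with a replicate 2 signal within 10% of that of Rpl41, 99.7% had a stricter peak in replicate 3. With promoter windows of 2 kb, Rpl41 too was open in both libraries, through a replicate 3 peak more than 1000 bp from its start sites.

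The members that were open had strong promoter peaks. The signal of the strongest promoter peak had a median of 6.22 over 81 members in replicate 2, with quartiles of 4.81 and 8.75, against 3.75 over 11019 genes. In replicate 3 the median was 5.62 over 78 members, with quartiles of 4.52 and 7.58, against 4.65 over 8924 genes. To set the libraries beside each other, each gene was ranked among all genes with a promoter peak in that library, from 0 to 100. The members' median percentile was 74.8 in replicate 2 and 63.0 in replicate 3. Members at or above the 75th percentile were 40 of 81 (49.4%) in replicate 2 and 26 of 78 (33.3%) in replicate 3. Those at or above the 50th were 72 (88.9%) and 55 (70.5%). Replicate 3 ranked a smaller pool of genes, and among the 8917 genes open in both libraries the members' medians were 69.9 in replicate 2 and 62.9 in replicate 3.

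**Figure D1:**
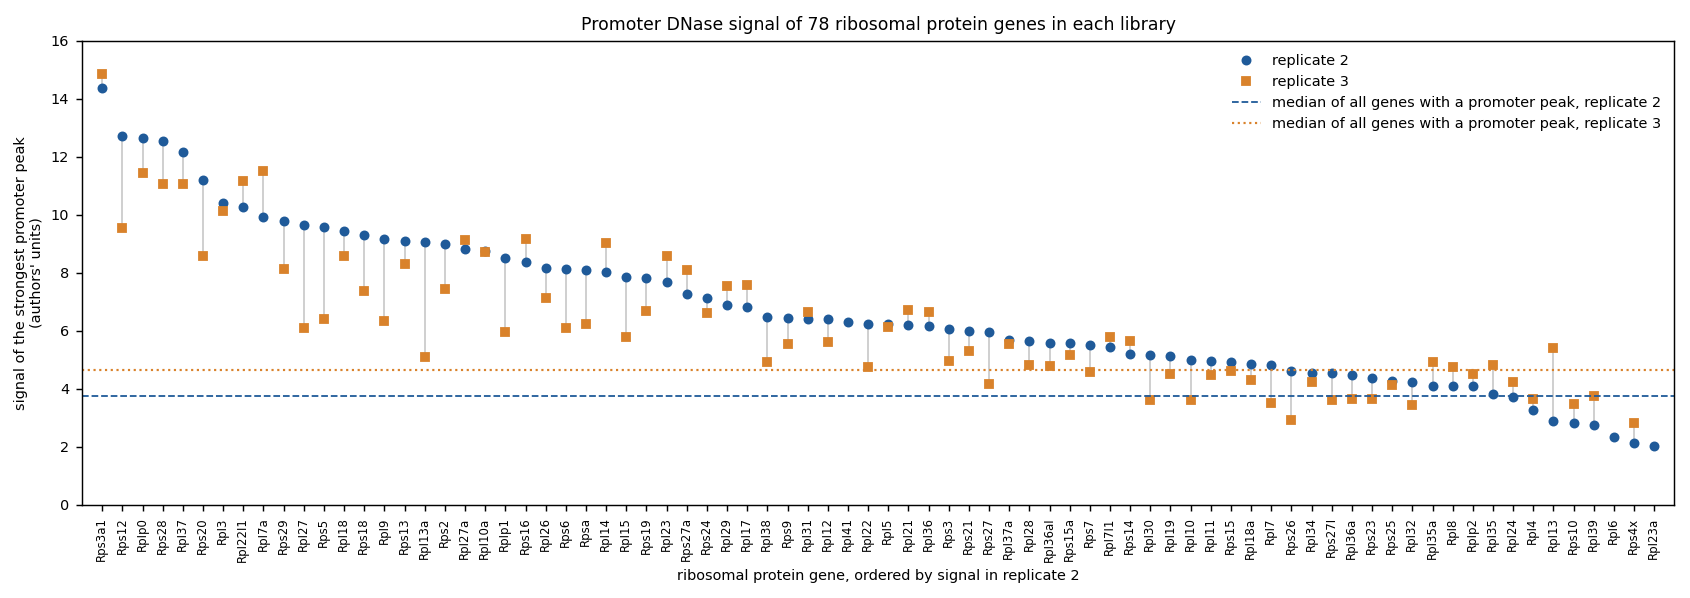
Signal of the strongest promoter peak (vertical axis, in the authors' units) for 78 ribosomal protein genes open in replicate 2, ordered from left to right by that signal. Circles are replicate 2, squares are replicate 3, and the lines mark the medians over all genes with a promoter peak, 3.75 and 4.65. Values run from 14.4 for Rps3a1 to 2.01 for Rpl23a in replicate 2, and Rpl41, Rpl6 and Rpl23a have no square.

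The 10 members of highest mean percentile were led by Rps3a1, whose protein sits at the mRNA exit side of the 40S subunit, at 14.4 in replicate 2 and 14.9 in replicate 3. Rplp0, the base of the stalk that recruits translation factors, had 12.7 and 11.4. Both stood above the 97th percentile in both libraries. Rps28 had signals of 12.5 and 11.1 in replicates 2 and 3, Rpl37 had 12.2 and 11.1, and Rps12 had 12.7 and 9.53. Rpl7a, whose introns host 3 snoRNAs, had 9.93 and 11.5. Rpl3, which reaches toward the peptidyl transferase centre, had 10.4 and 10.1, and Rps20 had 11.2 and 8.58. With Rpl22l1 these are 9 of the 10, and their mean percentiles lay between 93.3 and 99.6.

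The stalk proteins and Rpsa differed among themselves. Against the 98.2 of Rplp0, the mean percentile was 78.0 for Rplp1 and 51.1 for Rplp2, whose proteins bind to P0 as dimers. Rplp1 reached 8.51 in replicate 2 and 5.96 in replicate 3. Rplp2 had 4.08 and 4.52. Rpsa, which encodes the 40S protein also described as a laminin receptor, had 8.09 and 6.23 and a mean percentile of 78.6. Rpl5 and Rpl11, whose proteins bind Mdm2 as part of the 5S RNA particle, had mean percentiles of 72.0 and 55.5.

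Among the 6 members of lowest mean percentile were Rps4x, Rps10, Rpl39, Rpl4 and Rps26. Rps4x, on the X chromosome, had signals of 2.12 in replicate 2 and 2.80 in replicate 3, at a mean percentile of 24.1. Rps10 had 2.81 and 3.48, Rpl39, which lines the exit tunnel, had 2.73 and 3.75, and Rpl4 had 3.27 and 3.66. Rps26, whose protein contacts the mRNA in the exit channel, had 4.61 in replicate 2 and 2.94 in replicate 3.

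Members on the X chromosome, of which male cells hold 1 copy, were open in both libraries in 4 of 4 cases, against 23.3% of all 948 X-linked protein-coding genes. Rpl10, which completes the 60S subunit late in its maturation, had 4.99 in replicate 2 and 3.61 in replicate 3. Rpl36a had 4.48 and 3.66. The median percentile of the 4 X-linked members was 47.9 in replicate 2 and 34.2 in replicate 3, against 76.5 and 65.0 for the autosomal members. All X-linked protein-coding genes with a promoter peak had medians of 28.2 and 16.5. The part of copy number in these values was not tested.

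The order of the members was similar in both libraries. Over the 78 members open in both, Spearman's rho between their signals was 0.879 and Pearson's r 0.881, and rho was 0.920 over all 8917 genes. These are descriptions across genes, which are not independent replicates. Signal was higher in replicate 2 than in replicate 3 for 51 of 78 members (65.4%), against 45.6% of all genes. The difference in percentile, replicate 2 minus replicate 3, had a median of 8.04 over the members and 7.73 over all genes. The members that stood higher in replicate 2 by most were Rps26 (by 37.8 percentile points), Rpl13a (34.4), whose protein is part of an interferon-gamma-activated translational inhibitor in human myeloid cells, and Rpl30 (31.7). For Rps26 the strongest peak was a different site in each library, centred at -63.5 bp from the start site in replicate 2 and 246.5 bp in replicate 3. Its difference is thus not that of a single site. Rpl13a stood at 9.04 in replicate 2 and 5.10 in replicate 3, and Rpl30 had 5.15 and 3.61. The members with the most negative difference were Rpl13 (-21.2), Rpl14 (-5.46) and Rpl23 (-5.10). Rpl13 had 2.90 in replicate 2 and 5.42 in replicate 3.

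**Figure D2:**
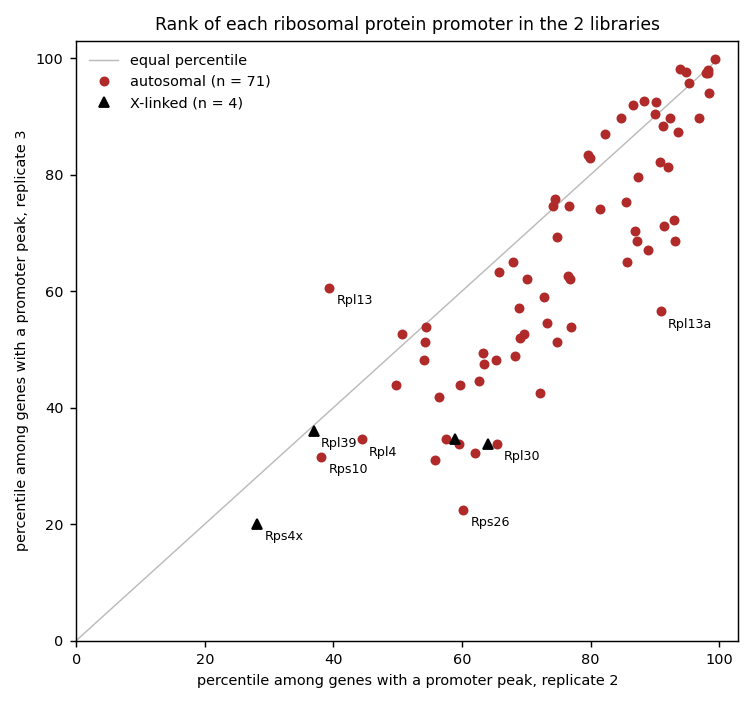
Percentile of each member's promoter signal among all genes with a promoter peak, in replicate 2 (horizontal axis) and replicate 3 (vertical axis), for 75 ribosomal protein genes open in both. Circles are 71 autosomal members, triangles 4 X-linked members, and the line marks equal percentiles. Most points lie below the line, Rpl13 lies well above it, and Rps4x is at the lower left.

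Genes that act with the ribosomal proteins were set beside them. Fau, which encodes a 40S protein fused to a ubiquitin-like protein and falls outside the symbol rule, reached 9.12 in replicate 2 and 9.08 in replicate 3. The members' median percentiles of 74.8 in replicate 2 and 63.0 in replicate 3 stood beside 81.8 and 73.2 for 17 translation genes with TOP mRNAs, all 17 open in both libraries. In that list, the elongation factor genes Eef1a1 and Eef2 had signals of 7.18 and 7.33 in replicate 2 and 6.73 and 8.94 in replicate 3. Tpt1, which encodes translationally controlled tumour protein, had 12.6 in replicate 2 and 12.3 in replicate 3, and Rack1, a protein on the head of the 40S subunit, had 3.61 and 3.34. Of 30 genes for ribosome assembly and rRNA synthesis, 29 were open in both libraries and Ubtf, a factor of RNA polymerase I, in replicate 2 alone. Their median percentiles were 60.6 in replicate 2 and 47.5 in replicate 3. Mitochondrial ribosomal protein genes were open in both libraries in 71 of 78 cases, with median percentiles of 52.9 and 49.98. Proteasome subunit genes, another large housekeeping complex, were open in both in 36 of 40, with 55.8 and 46.1.

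**Figure D3:**
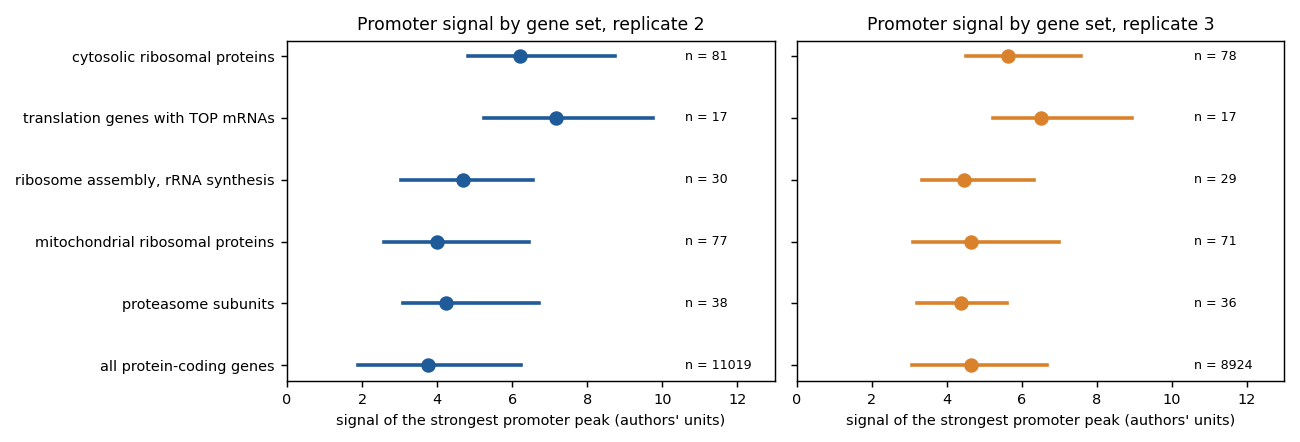
Signal of the strongest promoter peak (horizontal axis, in the authors' units) by gene set in replicate 2 (left) and replicate 3 (right), with n the number of genes with a promoter peak. Points are medians and bars span the first to the third quartile over genes, not an error over samples. Cytosolic ribosomal protein genes have medians of 6.22 and 5.62, above those of the mitochondrial ribosomal protein genes, 3.98 and 4.65.

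Open sites of the members were mostly single, narrow and close to the start site. The strongest promoter peak had a median width of 240 bp in replicate 2 and 220 bp in replicate 3, the same as over all genes. More than 1 promoter peak was found at 27 of 81 members (33.3%) in replicate 2, against 44.8% of all genes, and at 16 of 78 (20.5%) in replicate 3, against 26.3%. In replicates 2 and 3 these shares were 27.3% and 21.1% for mitochondrial ribosomal protein genes and 31.6% and 16.7% for proteasome genes. The peak covered the primary start site, the one used by most annotated transcripts, in 69 of 81 members (85.2%) in replicate 2, against 70.2% of all genes. In replicate 3 it did so in 61 of 78 (78.2%), against 68.7%. The centre of the peak lay at a median of -5.5 bp from that site in the members in replicate 2, against -32.5 bp for all genes, where negative is upstream. In replicate 3 the medians were -6.5 bp and -34.5 bp. Mitochondrial ribosomal protein genes had -2.5 bp in replicate 2 and -9 bp in replicate 3, and proteasome genes had -16 and -9.5 bp. The position near the start site was thus not particular to the members. For Rpl17, Rps10, Rps14 and Rpl18 the strongest peak lay over 1000 bp from the primary start site, at another annotated start, so these distances depend on the annotation.

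Peak coverage of the members was higher on both sides of the start site and lower farther upstream. In replicate 2, positions 0 to 99 bp after the start site were inside a peak in 72.0% of members on average, against 58.5% of all genes open in both libraries. Over the 100 bp before it the values were 82.7% and 75.9%, and over the 100 bp before those 39.4% and 48.2%. In replicate 3 the first 100 bp after the start were inside a peak in 67.0% of members and 51.8% of all genes, the 100 bp before it in 77.2% and 69.2%, and the 100 bp before those in 37.8% and 41.0%. Footprints covered 23.7% of members at those downstream positions in replicate 2, against 16.4% of all genes, and 7.89% against 4.36% in replicate 3.

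**Figure D4:**
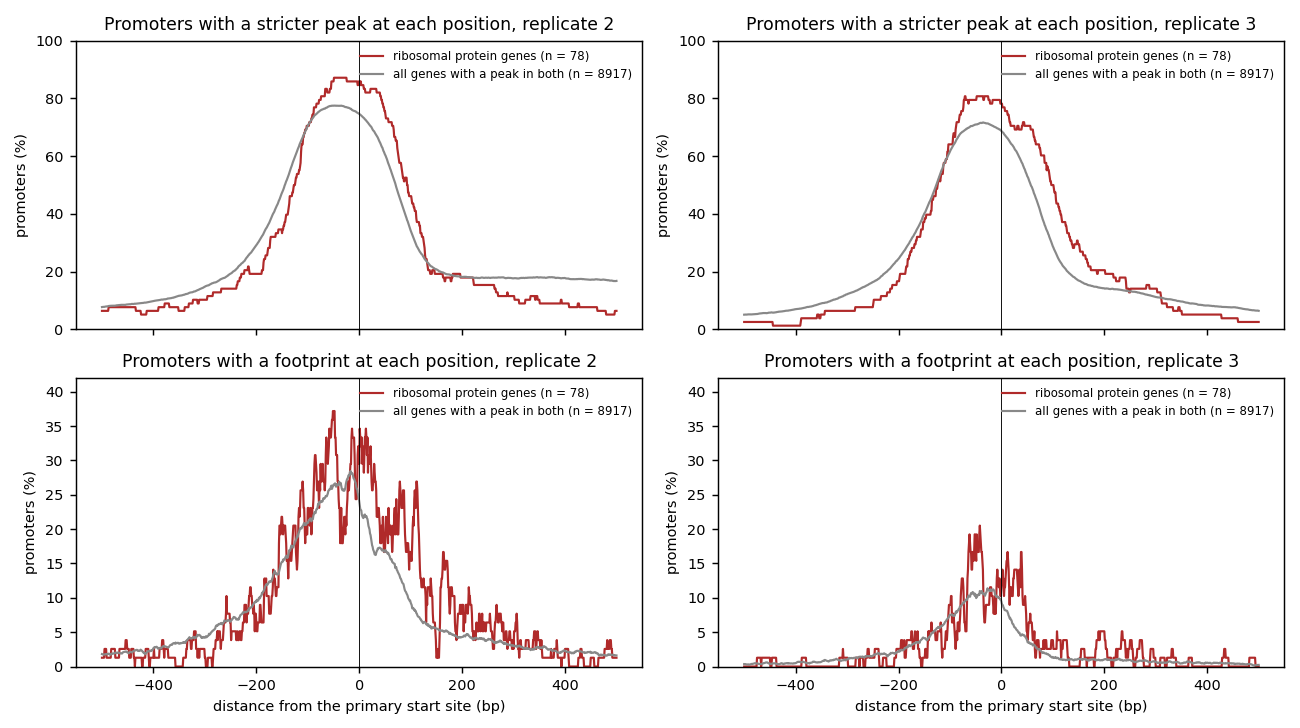
Share of promoters (vertical axis, percent) with a stricter peak (top) or a footprint (bottom) at each distance from the primary start site (horizontal axis, bp, positive downstream), in replicate 2 (left) and replicate 3 (right). Red is the 78 ribosomal protein genes and grey all 8917 genes open in both libraries. Peak coverage of the ribosomal protein genes reaches 87.2% in replicate 2 and 80.8% in replicate 3, against 77.5% and 71.7% for all genes.

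Every open member held at least 1 footprint in its promoter, 81 of 81 in replicate 2 and 78 of 78 in replicate 3, against 99.5% and 90.8% of all open genes. The median number was 8 in replicate 2, with a range of 2 to 17, against 7 for all genes. In replicate 3 it was 3, with a range of 1 to 7, and also 3 for all genes. The most footprints in replicate 2 were found at Rpl7, with 17, followed by Rpl18, Rps14 and Rps18 with 15 each. In replicate 3 the same promoters held 5, 3, 3 and 4. The counts took in the windows of all annotated start sites, of which Rpl18 and Rps14 had 5 each, Rps18 had 2 and Rpl7 had 1. Genes with distant start sites were thus searched over more bases. Among single members, Rps20, one of the 10 highest by mean percentile, held 4 in replicate 2. Rpl4, among the 6 lowest, held 13, in a window that also covers the start of the gene Zwilch.

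Sequence patterns of factors known at housekeeping promoters were searched for on both strands, from 250 bases before to 50 bases after the primary start site. The largest ratio of shares, members to all open promoters, was that of TCTCGCGA, the core of the CGCG element bound by the factor BANP. It was present in 13 of 91 members (14.3%), against 1.42% of all promoters and 2.99% of promoters open in both libraries. The share was 2.56% for mitochondrial ribosomal protein genes and 5.0% for proteasome genes. Of the 13 members, 12 were open in both libraries. Sites of 10 of them are shown, 30 bases each on the strand of the gene, with the 8 bases of the match in capitals (printed as TCGCGAGA where the match is on the other strand). The positions in GRCm38 are Rps3a1 at chr3:86142676-86142705 on the minus strand, Rps28 at chr17:33824545-33824574 on the minus strand, Rpl7a at chr2:26910744-26910773 on the plus strand, Rpl27a at chr7:109519163-109519192 on the plus strand, Rpl10a at chr17:28328523-28328552 on the plus strand, Rpl26 at chr11:68901529-68901558 on the plus strand, Rps6 at chr4:86857400-86857429 on the minus strand, Rps15a at chr7:118116195-118116224 on the minus strand, Rpl4 at chr9:64173121-64173150 on the plus strand, Rps19 at chr7:24884139-24884168 on the plus strand.
Rps3a1: gccagctagtgTCGCGAGAttcttaaagcc
Rps28: accgcgtgcggTCTCGCGAgagcgaaagtg
Rpl7a: agggcgcctgcTCTCGCGAtatctgcggcc
Rpl27a: cgcctgctaccTCGCGAGActtcgtgagct
Rpl10a: taacgggcaacTCTCGCGAgaacgcgggct
Rpl26: cgctccgagacTCTCGCGAgatctcgcggc
Rps6: ccgccggctgtTCTCGCGAgaacttagagc
Rps15a: tgaccatgaagTCTCGCGAtagcgcttccg
Rpl4: agaaagataatTCTCGCGAgagttgtgacg
Rps19: gtatctcttggTCTCGCGAatgctaatgct

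The pattern is most of a palindrome, so a longer site is found from both sides. In Rpl26, Rps6, Rpl10a, Rps28 and Rpl4, among others, the match was found on both strands, 2 bases apart, which counts as 2 matches. Over the 12 members there were 18 matches, of which 13 (72.2%) overlapped a footprint of replicate 2, against 74.1% of all such matches in promoters open in both libraries. In replicate 3, 4 (22.2%) did, against 24.8%. The 12 members with the pattern had median percentiles of 89.98 in replicate 2 and 85.0 in replicate 3, against 73.8 and 61.3 for the 66 open members without it. No such split was made over all open genes, so whether this difference is particular to the members was not tested. Among the 12 were Rps3a1, Rps28 and Rpl7a, of the 10 strongest members, and Rpl4, of the 6 weakest, whose match began at -243 bases from the start site. That match lay between the start of Rpl4 and that of Zwilch, a gene starting 271 bp upstream on the opposite strand.

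The other patterns differed in both directions. CCGGAAG, the core of ETS family sites, was found in 24 of 91 members (26.4%, Wilson interval 18.4 to 36.3%), against 11.1% of all promoters. The share was higher for mitochondrial ribosomal protein genes, 35.9%, and for proteasome genes, 32.5%. Among promoters open in both libraries the shares were 28.2% for members and 21.8% for all genes. Of 26 member matches, 18 (69.2%) overlapped a footprint of replicate 2, against 56.1% of all matches, and 20 (76.9%) lay on the strand of the gene, against 51.4%. ACTACAA, part of the ZNF143 site, was found in 10.3% of open members and 4.96% of all open promoters. GGGGCGGG, the SP and KLF box, was less frequent in open members, 17.9%, than in all open promoters, 33.6%. Over all mitochondrial ribosomal protein genes, open or not, its share was 26.9%, and over all proteasome genes 17.5%. CCAAT, the NFY box, was found in 32.1% of open members and 40.2% of all open promoters. For AAGATGGC (YY1) the shares were 6.41% and 5.82%, for GCATGCGC (NRF1) 3.85% and 6.68%, for TGACGTCA (CREB) 6.41% and 4.40%, and for CACGTG (E-box) 11.5% and 10.9%. Matches are a description of letters and not of binding.

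Open members were less rich in G and C than other open promoters, with a median of 56.0% in these 300 bases against 61.3%. Their ratio of observed to expected CpG was 0.853, against 0.807. The 13 members not open in both libraries had 45.0% and 0.537. Over all mitochondrial ribosomal protein genes, open or not, the values were 57.8% and 0.822, and over all proteasome genes 56.0% and 0.789. These bases, like those searched for patterns, lie at the primary start site. Rpl17, Rps10 and Rps14, counted as open, were not open in both libraries at that site, and neither were some other open genes. TATAAA from 40 to 20 bases before the start was found in 0 of 91 members, which allows up to 4.05% by the Wilson interval, against 2.29% of all promoters. At these positions TATAAA was also rare in all promoters open in both libraries, 0.561%, and was found in 0 mitochondrial ribosomal and 0 proteasome genes. Within 50 bases on either side of the start, on the strand of the gene, 5 of 78 open members held it (6.41%), against 1.32% of open promoters. These 5 were Rplp0, Rps2, Rps28, Rpl22l1 and Rpl36a, and this wider window was chosen after the sequences were seen. In all 5 the match lay after the annotated start, by 17 bases in Rplp0 and Rps2 and 37 bases in Rps28, and in 4 of them, all except Rpl36a, it overlapped a footprint of replicate 2.

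**Figure D5:**
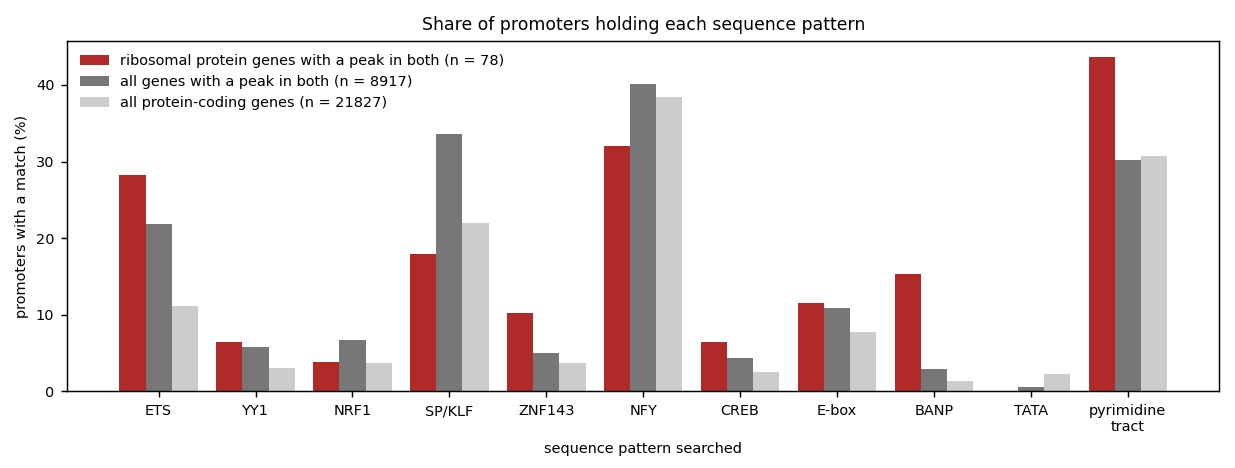
Share of promoters (vertical axis, percent) holding each sequence pattern between 250 bases before and 50 bases after the primary start site; TATA was searched from 40 to 20 bases before it, and the pyrimidine tract had to begin within 10 bases of it. Bars from left to right in each group are ribosomal protein genes open in both libraries (n = 78), all genes open in both (n = 8917) and all protein-coding genes (n = 21827). The BANP pattern reaches 15.4% in ribosomal protein genes against 2.99% of all open genes, and the SP/KLF box 17.9% against 33.6%.

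A pyrimidine tract, taken as a C followed by 4 or more pyrimidines and beginning within 10 bases of the start site, was found in 41 of 91 members (45.1%), against 30.7% of all promoters. The base at the primary start site was C in 29 members (31.9%), against 17.4% of all genes, and a C at that base followed by 4 or more pyrimidines, alone or inside a longer tract, was found in 9 (9.89%), against 2.26%. The annotated starts set these shares. RefSeq promoter sequences were matched for 65 of the 91 members, and at those starts a tract was present in 61.5% of members, against 35.2% of 16515 protein-coding genes. A C at the RefSeq start itself followed by 4 or more pyrimidines, again also inside a longer tract, was found in 14 of 65 members (21.5%), against 2.71%. The longest tracts, of 13 or more bases, are shown with 10 bases before and 20 from the RefSeq start on, with the tract in capitals. The RefSeq sequences are of GRCm38, and the positions are Rpl27a at chr7:109519185-109519214 on the plus strand, Rpl35 at chr2:39005112-39005141 on the minus strand, Rpl15 at chr14:18270967-18270996 on the minus strand, Rpl7a at chr2:26910797-26910826 on the plus strand, Rpl14 at chr9:120571507-120571536 on the plus strand, Rpl13a at chr7:45128726-45128755 on the minus strand, Rpl34 at chr3:130730318-130730347 on the minus strand, Rpl35a at chr16:33056472-33056501 on the plus strand, Rps10 at chr17:27635225-27635254 on the minus strand.
Rpl27a: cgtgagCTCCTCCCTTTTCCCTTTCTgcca
Rpl35: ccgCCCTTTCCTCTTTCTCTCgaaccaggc
Rpl15: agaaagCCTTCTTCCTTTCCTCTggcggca
Rpl7a: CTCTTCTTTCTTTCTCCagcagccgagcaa
Rpl14: ggCCCTCTCTCTTCTCgctgagcgccgcca
Rpl13a: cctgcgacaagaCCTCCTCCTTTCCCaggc
Rpl34: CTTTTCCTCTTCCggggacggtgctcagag
Rpl35a: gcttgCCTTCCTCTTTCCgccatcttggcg
Rps10: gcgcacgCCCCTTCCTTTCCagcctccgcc

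In Rpl27a the tract ran over 20 bases, and it mixed C and T in all 9 promoters. All 9 genes were open in both libraries, with signals in replicate 2 between 2.81 (Rps10) and 9.93 (Rpl7a). Over all members the tract did not separate signals: the 34 open members with a tract at the primary start had median percentiles of 74.8 in replicate 2 and 64.9 in replicate 3, against 76.5 and 63.0 for the 44 without.

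Some members share their promoter window with, or contain, another gene. Of the 91, 11 (12.1%) had a protein-coding gene starting within 1000 bp on the opposite strand and pointing away, against 8.01% of all genes. All 11 were open in both libraries, against 87.4% of all genes with such a partner. The closest pair was Rps28 with Ndufa7, a subunit gene of mitochondrial complex I, at 10 bp. The others included Rps27 with Rab13 at 44 bp, Rpl9 with Lias at 53 bp, Rpl15 with Nkiras1 at 69 bp and Rpl7a with Med22 at 87 bp. The promoter windows of such pairs overlap, so a peak there cannot be given to 1 gene alone. Their median percentiles were 85.7 in replicate 2 and 65.0 in replicate 3, against 74.8 and 62.7 for the 67 other open members. Small nucleolar RNAs, which guide the modification of rRNA, lay inside 30 members (33.0%), 58 in all, against 1.17% of all genes. Of these hosts 28 were open in both libraries, against 69.0% of all host genes, with median percentiles of 82.2 and 69.7, against 73.5 and 62.1 for the 50 open members that host none.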

How the data were processed

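DNase-seq was measured in 2 libraries of naive CD8+ T cells. Per the labels, coordinates are on mm10. Every list came from its own library, per notes the authors deposited. Which aligner and callers made them is not stated in those notes. The authors' deposited peak lists give a signal per peak with unstated scaling. The deposited false discovery rates (q-values) are listed up to 0.05. The deposited footprint lists carry a constant in their value column, so their intervals alone were used. Sequencing depth is unknown, which leaves the counting error of single signals unknown. Of the peak lists, the shorter was used for the main results.

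Promoters were 1000 bp either side of protein-coding start sites of GENCODE M21, an overlap was 1 bp or more, and a promoter took the signal of its strongest peak. Percentiles were computed within each library. On every chromosome the largest peak end lay within the length of the GRCm38 reference, a check that another build could also pass. Sequences came from GRCm38 and RefSeq. Scripts ran in Python 3.11.15 with numpy 2.4.6, pandas 2.3.3, scipy 1.17.1 and numba 0.67.0, figures in matplotlib 3.10.9, and the overlap and motif searches were tested on simulated data. With 1 group, results are descriptions with no test. The members, lists and tests were chosen with earlier results of these data known. Genes named were members not open in 1 or both libraries, the 10 highest and 6 lowest by mean percentile, the 3 largest library differences each way, those with most footprints, X-linked members, copies, stalk proteins and Rpsa. Some genes under these rules are not reported here, and the figures of single members leave them out. Other genes named were chosen after their values were seen. Alternatives changed the peak list, window, start site, ranking and search window.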

Additional observations from a re-analysis of the deposited data

How the results depend on the processing

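Of 91 values recomputed under alternatives, 80 stayed within a tolerance: counts within 1.5 times, shares within the Wilson interval of the main share, medians within 1 SD between the libraries and rho within 0.05. That interval is wide for rare patterns, so the NRF1 share of 4.40% still counted as kept at 2.20% in the window of 100 bases. With 1 library left out at a time, the number of members open in the remaining library ran from 78 to 81. The median percentile ran from 63.0 to 74.8 and the median footprints per promoter from 3 to 8. The median peak distance ran from -6.5 to -5.5 bp and the median width from 220 to 240 bp. The main medians are means over the libraries, so leaving 1 out always moves them by less than that SD. Those medians, counted among the 80, could not leave the tolerance. With the permissive list 1 member was open in replicate 2 alone, against 3. Ranking among all peaks of the library gave a mean of the median percentiles of 86.4, against 68.9. The median peak distance of -6 bp became -19.8 bp from the nearest start site and -10.3 bp without the members over 1000 bp away. Summing over promoter peaks lowered Spearman's rho to 0.79. The NFY share of 29.7% became 19.8% in a window of 100 bases before and 49.5% in one of 500, and the E-box share of 11.0% became 3.30% in the window of 100. At RefSeq starts, chosen after seeing the data, the ETS share was 40%, the ZNF143 share 6.15% and the tract share 61.5%. In these RefSeq rows a gene may have several starts, and 65 members were covered. Members open in both numbered 76 with a window of 100 bp (36.5% of all genes), 75 with the primary start site alone (39.2%) and 75 with the stronger peaks of each list (30.6%). No paired analysis was possible because the study has 1 group.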

Other observations

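Peaks within the annotated spans of the members but outside their promoters were counted, with no share over all genes to set beside them. In replicate 2, 7 of 91 members held such a peak and in replicate 3, 3 did (Rpl26, Rpl3 and Rps24). A peak within the annotated span of Rpl3, on chromosome 15 at 80088761 to 80088900, had 4.08 in replicate 2 and 5.56 in replicate 3. Rpl3 is on the minus strand and its protein-coding start site is at 80083406, so this peak lay upstream of that start. The Rps24 peak beginning at 24486941 on chromosome 14 had 4.30 and 3.70. It overlapped the annotated 5′ end of the gene at 24487125, upstream of the primary start site at 24490718 on the plus strand.

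Annotated pseudogenes of these proteins numbered 290, and a stricter peak overlapped 2 of them (0.690%) in each library, Rpl37rt and Rpl19-ps3, both annotated as transcribed processed pseudogenes. The signals at Rpl37rt were 2.54 in replicate 2 and 2.94 in replicate 3, and at Rpl19-ps3 1.06 and 1.36. No share over pseudogenes of other genes is given beside these.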
